A study of Mus musculus with 6 samples.

Results

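The CCN and thrombospondin matricellular genes are a group of 10 genes for secreted proteins of the extracellular matrix: 4 CCN genes (Ccn1, Ccn2, Ccn3 and Ccn5), 4 thrombospondin genes (Thbs1 to Thbs4), Sparc and Postn. They were chosen by symbol, and each was read by 1 probe set, so that they make up 10 of the 19938 genes that the platform's annotation names on the array. The choice was made with the difference between the treated and the saline hearts already known, in which Ccn1, Ccn2 and Thbs1 were lower. That difference is therefore a description of these genes: it is given with its error, the text says which genes the fit over all genes called, and nothing is read from those calls.

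All 6 hearts came from male C57BL/6 mice aged 10 weeks, labelled C57/BL6 in the sample records, and left ventricular tissue was measured with 1 Affymetrix array per sample. The 3 samples of the treated group are labelled 2-methyl-2-thiazoline (2MT), a small sulfur-containing ring compound, which was given under the skin at 50 mg/kg with the heart taken 4 h later. The 3 samples of the control group are labelled saline, and the treatment text they carry is the one written for 2MT, so that the time from saline injection to excision is not stated separately. No genetic change is named for either group. Whether each array stands for a different animal is not stated, so errors and p-values describe the variation among these arrays, part of which could be technical.

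Matricellular proteins sit in the matrix without building it. They bind collagens, growth factors, integrins and other cell surface receptors, and so adjust how cells attach, migrate and respond to signals. In the heart most of them are low in the healthy adult ventricle and rise after injury or pressure overload, where fibroblasts, vessel cells and cardiomyocytes make them. CCN1 and CCN2 are early-response genes, switched on within hours by mechanical stretch, serum and TGF beta, with the coactivators YAP and TAZ (through TEAD factors) and the factor SRF with its MRTF coactivators as known regulators.

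The start of the Ccn1 gene is shown because Ccn1 is one of the genes lower in 2MT and the regulators named above are known to act on CCN genes. Windows came from RefSeq (build GRCm38.p6), which named 6 of the 10 genes: Ccn1, Thbs2, Thbs3, Thbs4, Sparc and Postn. Each window ran from 250 bases before to 50 after a start, and 7 motifs were searched in it on both strands. The 250 bases before the Ccn1 start lie at chr3:145649986-145650235 on the minus strand, and those before the Thbs4 start, shown for comparison, at chr13:92794819-92795068 on the minus strand. Capitals mark every motif match, and letters run 5′ to 3′ along the gene.
Ccn1: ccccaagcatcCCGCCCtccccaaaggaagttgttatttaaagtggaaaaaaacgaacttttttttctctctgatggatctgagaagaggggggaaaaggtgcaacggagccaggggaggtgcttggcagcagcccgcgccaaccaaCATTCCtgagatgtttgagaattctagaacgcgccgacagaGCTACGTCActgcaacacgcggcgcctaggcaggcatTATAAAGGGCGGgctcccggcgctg
Thbs4: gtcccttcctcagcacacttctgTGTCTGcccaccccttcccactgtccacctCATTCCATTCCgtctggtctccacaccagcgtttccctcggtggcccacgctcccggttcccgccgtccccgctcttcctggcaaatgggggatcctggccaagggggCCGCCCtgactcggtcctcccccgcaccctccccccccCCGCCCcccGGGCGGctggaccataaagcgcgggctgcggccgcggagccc

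The Ccn1 stretch held 1 TEAD core (GGAATG, here read on the other strand as CATTCC) 103 to 98 bases before the start. The TEAD core was found in 14.7% of all 32851 promoter windows of the same length. The Ccn1 stretch also held 1 core of the antioxidant response element (TGACNNNGC, read here as GCTACGTCA) 62 to 54 bases before the start, a motif present in 12.4% of windows. Next to the start came a TATA box (TATAAA) at 25 to 20 bases and directly after it a GC box (GGGCGG) at 19 to 14 bases, motifs present in 13.6% and 35.7% of windows, and a second GC box lay 239 to 234 bases before the start. The Thbs4 stretch held 2 overlapping TEAD cores (197 to 192 and 192 to 187 bases before the start), 3 GC boxes and 1 SMAD element (CAGACA, read as TGTCTG), which 21.0% of windows hold. Neither stretch held an AP-1 site (TGANTCA, in 7.81% of windows) or a CArG box, the SRF motif (in 1.63%). Genes not called had some of the same motifs. Postn held a core of the antioxidant response element 138 to 130 bases before 1 start. It also held a TATA box 26 to 21 bases before its other start. Thbs2 held the same letters on the other strand only (read as TTTATA), 126 to 121 bases before its start. A match of letters is a description and does not show that a factor binds there.

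The values below are log2 signals, so that a difference of 1 stands for 2-fold. Signals of different probe sets are not read as levels of one gene against another. Where 1 gene is subtracted from another on an array, or markers are summed, only the values of the arrays are compared. A floor was set at 4.345, the middle value of the probe sets' means, and genes averaging less were treated as dim and not tested. This left 10547 genes, of which 9 are matricellular genes of the group, while Ccn3 was dim. The words rose and fell are used only of genes with an adjusted p under 0.05 (Benjamini-Hochberg) in the limma fit over all tested genes. By that rule 4.63% of all tested genes were called, 2.41% lower and 2.22% higher in 2MT. Of the 9 tested matricellular genes 3 were called, Ccn1, Ccn2 and Thbs1, all lower in 2MT. Since this contrast was known when the genes were chosen, nothing is read from that count. For the gene lists, counts at an unadjusted p under 0.05 in the same fit are given as well. The share of all tested genes under that looser cut was not worked out. It is larger than 4.63%, so those counts are not read as results about the lists.

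**Figure D1:**
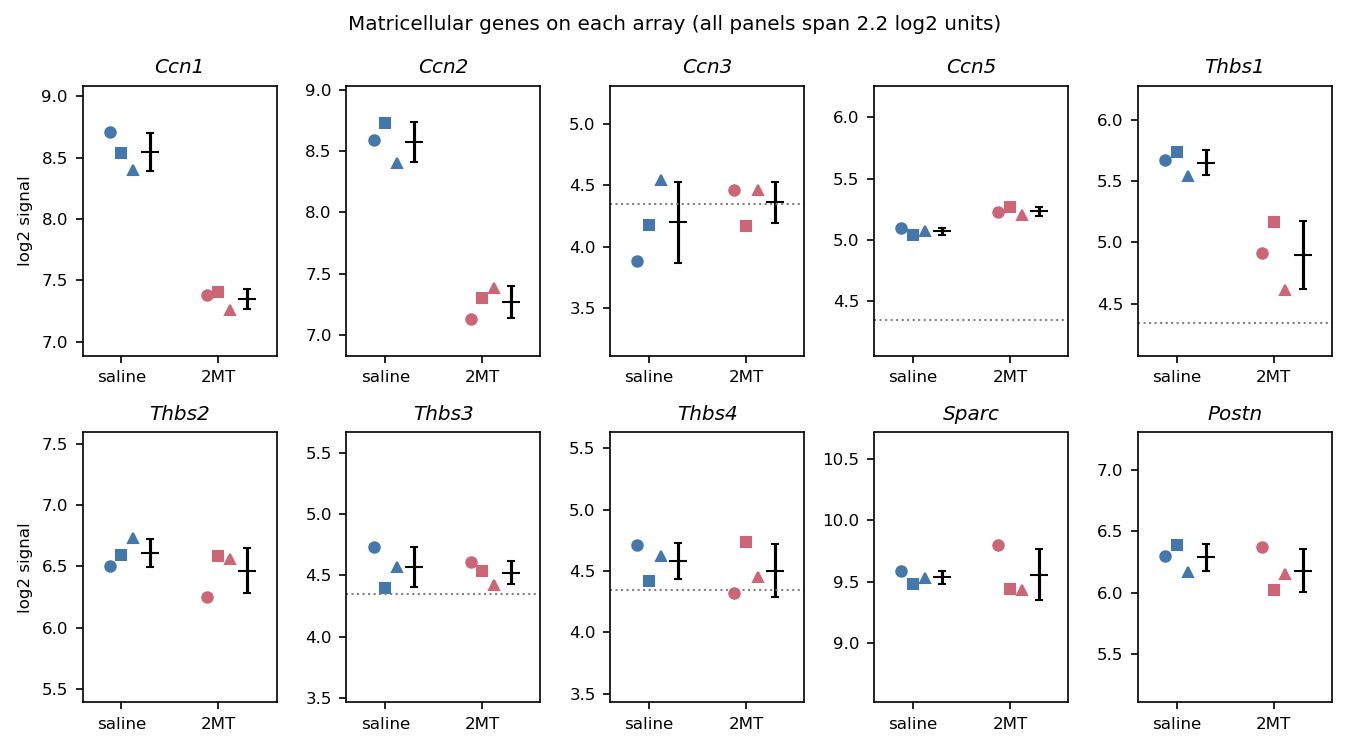
Log2 signal (vertical axis) of the 10 genes on each array, saline in blue and 2MT in red, with circles, squares and triangles for replicates 1, 2 and 3 and a black bar for the mean ± SD of 3 arrays. Every panel spans the same range, and dotted lines mark the dim floor of 4.345. The groups stand clearly apart for Ccn1, Ccn2 and Thbs1, narrowly for Ccn5, and overlap for the other genes.

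Among the CCN genes, Ccn1, which encodes a ligand of integrins that acts on vessel growth and cell survival, had log2 signals of 8.71, 8.54 and 8.40 in saline and 7.38, 7.41 and 7.26 in 2MT. The highest 2MT array lay far below the lowest saline array. The means were 8.55 ± 0.16 and 7.35 ± 0.08 (SD, n = 3), and Ccn1 fell by 1.20 ± 0.08 (SE), which is 2.30-fold. Ccn2, the connective tissue growth factor, which promotes matrix production downstream of TGF beta, had 8.59, 8.73 and 8.40 in saline and 7.13, 7.30 and 7.38 in 2MT. Again the lowest saline array was far above the highest 2MT array. Ccn2 fell by 1.30 ± 0.08 (SE), from 8.57 ± 0.17 to 7.27 ± 0.13 (SD, n = 3), which is 2.47-fold. Ordered from the most negative difference, Ccn2 was number 8 and Ccn1 number 11 of the 10547 tested genes.

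Ccn1 and Ccn2 moved by like amounts. The difference Ccn2 minus Ccn1 within an array was -0.12, 0.19 and 0 in saline and -0.25, -0.11 and 0.12 in 2MT, so the groups overlapped and their means differed by -0.10 beside SDs of 0.16 and 0.19. Within the groups the 2 genes shared the order of the arrays only in part. In saline, Ccn1 was highest on replicate 1 and Ccn2 on replicate 2, while both were lowest on replicate 3. In 2MT, replicate 3 was lowest for Ccn1 and highest for Ccn2. With 3 arrays per group, no more is read from these orders.

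The other CCN genes of the group had small positive differences. Ccn5, which lacks the C-terminal domain of its relatives and is known for opposing CCN2, had 5.10, 5.04 and 5.07 in saline and 5.23, 5.27 and 5.20 in 2MT. All 2MT arrays were above all saline arrays, a separation that 21.1% of all tested genes showed in one direction or the other. The difference of 0.16 (95% interval -0.02 to 0.35) was not called in limma, which weighs the small SDs of 0.03 and 0.04 against the larger spread of genes of like signal. Ccn3, a member first found at a retroviral insertion site and linked to Notch signalling, lay around the dim floor, at 3.88, 4.18 and 4.54 in saline and 4.46, 4.17 and 4.46 in 2MT. Its groups overlapped, with a difference of 0.16, and in a fit without the dim filter the 95% interval ran from -0.16 to 0.49.

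Among the thrombospondins, Thbs1 was the one that fell. Its protein activates latent TGF beta and limits vessel growth through the receptors CD36 and CD47. The signals were 5.67, 5.74 and 5.54 in saline and 4.91, 5.17 and 4.61 in 2MT, so that no 2MT array reached the lowest saline array. The 2MT arrays were spread more widely, with an SD of 0.28 against 0.10 in saline (n = 3), and replicate 3, the lowest, came closest to the dim floor. Thbs1 fell by 0.75 ± 0.13 (SE), from a mean of 5.65 to 4.90, which is 1.69-fold, and was number 44 in order of the most negative difference. Leaving out 2MT replicate 3 gave -0.61 and leaving out 2MT replicate 2 gave -0.89. Relative to Ccn2 on the same array, Thbs1 was at -2.92, -2.99 and -2.86 in saline and at -2.22, -2.13 and -2.77 in 2MT, so the 2MT arrays all lay higher, replicate 3 by the smallest amount. No test was made of that difference.

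Thrombospondin 1 is stored in platelets, so platelet markers are given beside it. Of 5 measured platelet markers 4 were tested and 0 passed in limma (1 at an unadjusted p under 0.05). Their summed linear signal was 129.7 to 137.7 in saline and 132.9 to 170.6 in 2MT, where replicate 1 was the highest. Pf4 and Ppbp, abundant platelet chemokine genes singled out after their values were seen, had differences of 0.30 and 0.31, and the other tested markers, Gp9 and Treml1, had -0.16 and -0.03. The part of platelets in the fall of Thbs1 was not tested.

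Thbs2, whose protein also limits vessel growth and supports the matrix of the loaded heart, had 6.50, 6.59 and 6.73 in saline and 6.25, 6.58 and 6.56 in 2MT. Only 2MT replicate 1 lay below the saline range, and the difference of -0.14 (95% interval -0.35 to 0.06) was not called. Thbs3, of the subgroup that assembles as pentamers, had 4.73, 4.40 and 4.57 in saline and 4.61, 4.54 and 4.42 in 2MT. Thbs4, of the same subgroup and known to rise in the overloaded heart, had 4.71, 4.42 and 4.62 against 4.32, 4.74 and 4.45. Both lay close above the dim floor, with overlapping groups. Their differences were -0.04 (95% interval -0.29 to 0.20) for Thbs3 and -0.08 (-0.35 to 0.19) for Thbs4. The intervals of Thbs2, Thbs3 and Thbs4 do not reach the -0.75 of Thbs1, but the differences between these genes were not tested.

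Sparc and Postn act on collagen: the SPARC protein binds it and aids its deposition, and periostin, made by activated fibroblasts, helps to cross-link it. Sparc had 9.59, 9.48 and 9.53 in saline and 9.80, 9.44 and 9.43 in 2MT. Replicate 1 of 2MT was above every saline array and the other 2MT arrays were below, which gave a mean difference of 0.02 (95% interval -0.15 to 0.20) that became -0.10 without that array. Postn had 6.30, 6.39 and 6.17 in saline and 6.37, 6.02 and 6.15 in 2MT, a difference of -0.11 (-0.31 to 0.10). Replicate 1 was again the highest 2MT array for Postn, and also for Col1a1 (6.56 against 6.19 and 6.26) and Col3a1 (6.44 against 5.89 and 6.10), collagen genes picked after their values were seen. Other matrix genes did not share that order: Dcn and Fbln5 were lowest in 2MT on replicate 1 (11.11 against 11.18 and 11.27, and 5.84 against 6.08 and 6.23), and the summed fibroblast markers were at 4726 there, against 4660 and 5030.

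**Figure D2:**
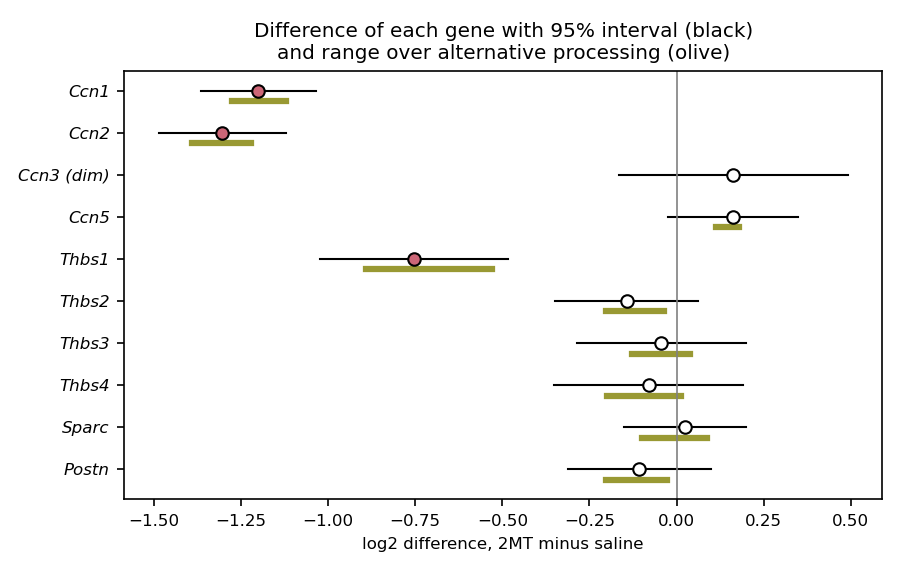
Log2 difference, 2MT minus saline (horizontal axis), of the 10 genes, with filled points for the 3 genes called in limma, black lines for 95% intervals and olive bars for the range over the alternatives in which the gene was tested. The interval and the point of Ccn3, which was dim, come from the fit without a dim filter. The bars of Ccn1 (-1.28 to -1.12), Ccn2 (-1.39 to -1.22) and Thbs1 (-0.89 to -0.53) are descriptions of genes chosen for this difference.

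Over the 9 tested genes the median difference was -0.11, beside 0.0033 over all tested genes. The 9 include Ccn1, Ccn2 and Thbs1, known to be lower when the group was chosen, so nothing is read from this median.

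Genes known to act with these proteins were described from lists written down by name. Of 18 measured genes for other matricellular proteins, 10 were tested and 0 passed in limma (3 at an unadjusted p under 0.05), with a median difference of -0.08 and a range from -0.20 to 0.16. The CCN genes Ccn4 and Ccn6 were dim, as were Comp, the remaining thrombospondin family gene, and Tnc, tenascin C, an injury-induced matrix gene at 3.22 in saline and 3.09 in 2MT. Mgp, which encodes a mineralisation inhibitor, was singled out after its values were seen. It did not pass, at -0.19 ± 0.06 (SE, adjusted p = 0.084), with all 2MT arrays below all saline arrays. Of 17 alternatives it passed in 1, without saline replicate 3 (0.028). That fit called 648 of all tested genes, beside 488 in the main fit.

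Of 16 tested receptor genes of these proteins 0 passed in limma, with 3 at an unadjusted p under 0.05 and a median difference of -0.04. Notch1 passed, lower in 2MT, in 1 of 17 alternatives, again without saline replicate 3 (adjusted p = 0.038). The thrombospondin receptor genes Cd36, a fatty acid transporter as well, and Cd47 were at 11.68 ± 0.03 against 11.72 ± 0.03 and at 7.93 ± 0.06 against 7.89 ± 0.03 (SD, n = 3, adjusted p of 0.73 and 0.79). Of 12 tested genes for ADAMTS proteins, metalloproteases and their inhibitors 0 passed in limma (2 at an unadjusted p under 0.05), with a median of -0.06. Adamtsl2 passed, lower in 2MT, in 1 of 16 alternatives, without saline replicate 2 (adjusted p = 0.048). In that list Adamts15, a proteoglycan-cleaving enzyme noticed after its values were seen, was dim. It had 3.63, 3.92 and 4.00 in saline and 4.95, 4.27 and 4.25 in 2MT, and its difference of 0.64 had an adjusted p of 0.083 in the fit without the dim filter.

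The regulators of Ccn1 and Ccn2 were described next. A published signature of YAP and TAZ target genes, from which Ccn1 and Ccn2 themselves were left out, had 18 tested genes, of which 0 passed in limma (3 at an unadjusted p under 0.05). Its median difference was 0.01, with 10 positive and 8 negative differences between -0.33 and 0.26. At its upper end was Ankrd1, a stress-responsive muscle gene of the same signature, at 10.80, 11.05 and 11.15 in saline and 11.22, 11.34 and 11.21 in 2MT. All of its 2MT arrays lay above the saline arrays, on the other side from Ccn1 and Ccn2. Its difference of 0.26 ± 0.07 (SE) had an adjusted p of 0.060. It passed in 3 of 17 alternatives: without saline replicate 3 (0.014), with array weights (0.035) and with the replicate number as a block (0.017). In the other 14 it did not pass, and without saline replicate 1 the difference was 0.16 (adjusted p = 0.18). At the lower end was Asap1, at -0.33 ± 0.09 (adjusted p = 0.061), which was singled out after its values were seen. Asap1 passed, on the same side as Ccn1 and Ccn2, in 4 of 17 alternatives. These were quantile normalization (0.0498), array weights (0.028), the replicate block (0.034) and the fit without saline replicate 3 (0.014).

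Of 16 tested genes of the Hippo pathway and its TEAD factors 0 passed in limma (1 at an unadjusted p under 0.05), with a median of -0.03. Vgll4, which encodes a TEAD cofactor, passed, lower in 2MT, in 1 of 17 alternatives, without saline replicate 3 (adjusted p = 0.025). In 2MT against saline, Yap1 was at 7.32 ± 0.05 and 7.35 ± 0.20, Wwtr1, the gene of TAZ, at 7.18 ± 0.04 and 7.30 ± 0.08, and Tead1 at 8.82 ± 0.06 and 8.70 ± 0.11 (SD, n = 3, adjusted p of 0.91, 0.34 and 0.35). These are transcript levels and do not report the activity of the proteins.

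In the list of SRF, its coactivators and their target genes, 3 of 20 tested genes were called, 2 higher and 1 lower. Of all tested genes 4.63% were called. In the list 7 genes were at an unadjusted p under 0.05 in limma, a cut whose share of all tested genes was not worked out. The median difference was 0.0050. Mrtfb, a coactivator of SRF, fell by 0.41 ± 0.06 (SE, adjusted p = 0.0020), from 7.90, 7.97 and 7.85 in saline to 7.59, 7.43 and 7.47 in 2MT. The groups did not overlap, and the call held in all 17 alternatives. With the mean of its probe sets the difference was smaller, at -0.31 (adjusted p = 0.021). Myocd, the gene of myocardin, the related coactivator of heart and smooth muscle, rose by 0.33 ± 0.08 (adjusted p = 0.025), from 7.23, 7.28 and 7.15 to 7.71, 7.43 and 7.50. Its call was lost without saline replicate 1 (0.074) or 3 (0.064), without 2MT replicate 1 (0.10) or 3 (0.075), without the variance trend (0.086) and with every probe set tested on its own (0.059). Fhl2, a LIM-domain protein abundant in heart muscle, rose by 0.16 ± 0.04 (adjusted p = 0.045), a call lost in 11 of 17 alternatives (adjusted p of 0.033 to 0.27 over all 17). Srf itself did not pass, with 7.37 ± 0.06 against 7.19 ± 0.02 in saline (SD, n = 3, adjusted p = 0.13), and the smooth muscle actin gene Acta2, an SRF target, was at 8.18 ± 0.50 and 8.02 ± 0.21 (adjusted p = 0.71).

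Of 20 tested TGF beta pathway genes 1 was called, beside 4.63% of all tested genes. In this list 5 genes were at an unadjusted p under 0.05 in limma, where again no share of all tested genes was worked out. The median difference was -0.05. Tgfbr3, which encodes betaglycan, a co-receptor that presents TGF beta 2, fell by 0.37 ± 0.07 (SE, adjusted p = 0.0088), from 7.51, 7.67 and 7.42 in saline to 7.21, 7.16 and 7.12 in 2MT, with no overlap. The adjusted p was 0.057 without 2MT replicate 3. The ligand genes Tgfb1 and Tgfb2 were at 6.02 ± 0.20 against 6.11 ± 0.13 and at 4.87 ± 0.05 against 4.86 ± 0.11 (SD, n = 3, adjusted p of 0.71 and 0.98).

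**Figure D3:**
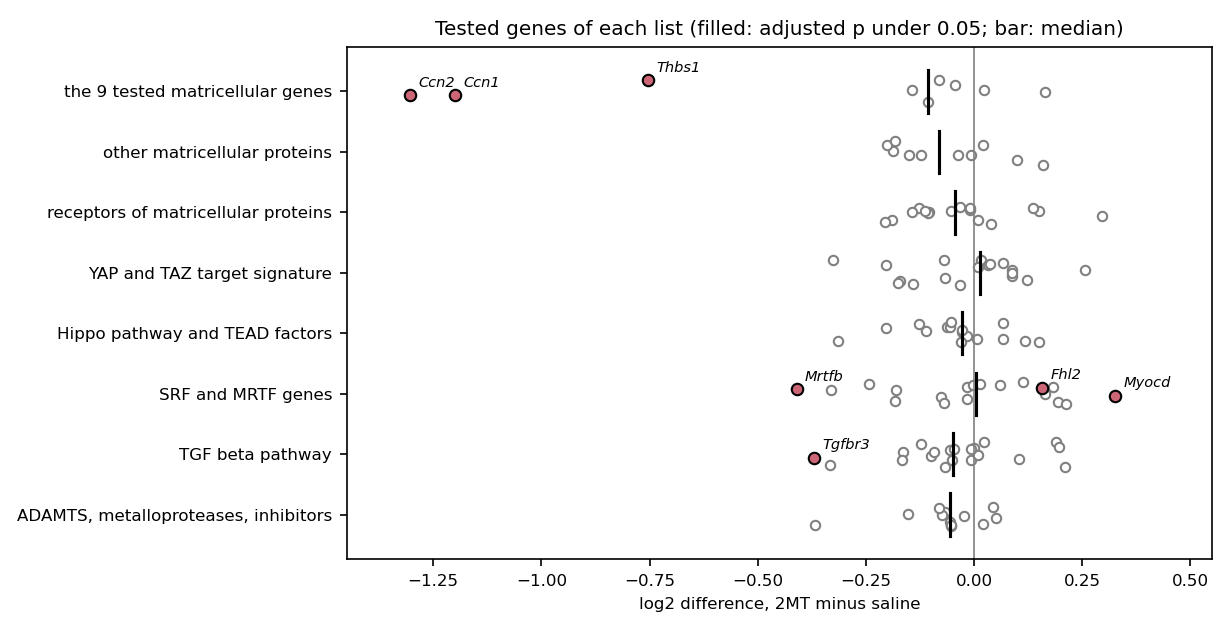
Log2 difference, 2MT minus saline (horizontal axis), of every tested gene of the 9 matricellular genes and of 7 lists of related genes, spread vertically within a list for visibility, with filled points for genes at an adjusted p under 0.05 and a bar at each median. Ccn2, Ccn1 and Thbs1 lie at -1.30, -1.20 and -0.75, while the other lists span -0.41 (Mrtfb) to 0.33 (Myocd).

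Among tested genes outside the matricellular group, those most like Ccn1, Ccn2 and Thbs1 in signal were found by Pearson's r over the 6 arrays. Such an r is set mainly by the step between the groups, and it is given with no p. For Ccn1 they were Blvrb (0.998), Trp53inp1 (0.995) and Txnrd1 (0.994), which encode a biliverdin and flavin reductase, a p53-induced protein and a thioredoxin reductase. For Ccn2 they were Mettl7a1 (0.998), Wee1 (0.998), the kinase that holds back entry into mitosis, and Pir (0.996), the gene of pirin. For Thbs1 they were Gcn1 (0.996), Nfkb2 (0.995), an NF-kappaB subunit, and Trip4 (0.987). All 6 genes like Ccn1 or Ccn2 were called lower in 2MT, with differences from -0.28 (Mettl7a1) to -1.39 (Trp53inp1), whereas Gcn1, Nfkb2 and Trip4, with differences of -0.13, -0.24 and -0.10, were not called.

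**Figure D4:**
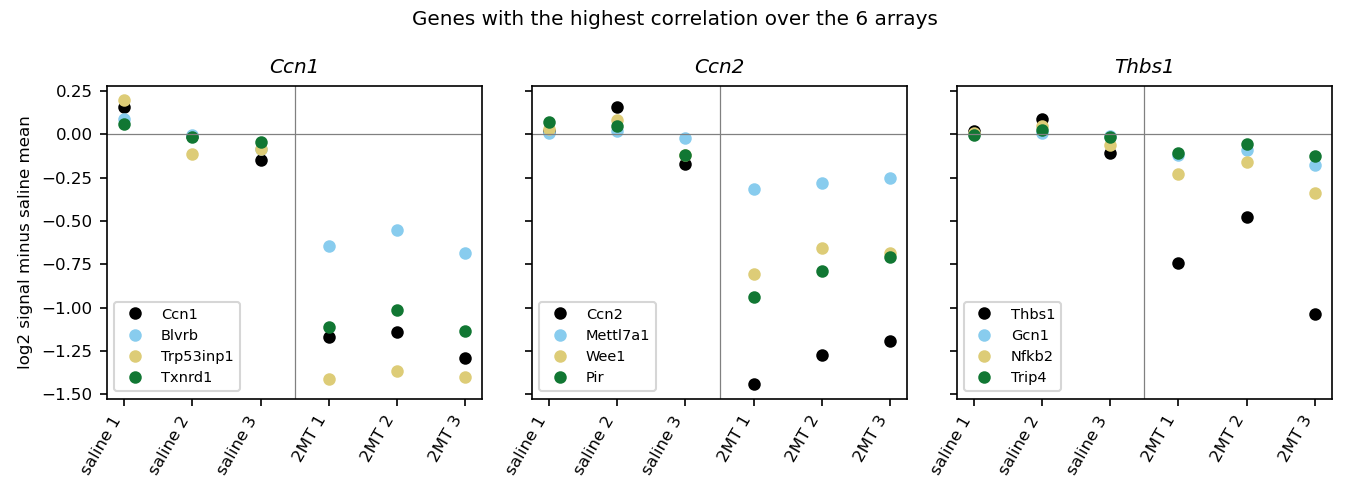
Log2 signal minus the saline mean (vertical axis) on each of the 6 arrays for Ccn1, Ccn2 and Thbs1 (black). Colours show the 3 genes outside the matricellular group most correlated with each. Trp53inp1 and Txnrd1 lie close to Ccn1 in size, by -1.39 and -1.09 beside -1.20, whereas the genes most like Thbs1 share the order of its arrays at a smaller size.

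In bulk tissue, fewer cells of a type and less RNA per cell cannot be told apart, so cell type markers are given beside the falls of Ccn1, Ccn2 and Thbs1. The 8 cardiomyocyte markers were all tested and 0 passed in limma (0 at an unadjusted p under 0.05), with a summed linear signal of 46340 to 46660 in saline and 46660 to 48150 in 2MT. Of 10 fibroblast markers 0 passed (2 at an unadjusted p under 0.05), with sums of 4755 to 4977 and 4660 to 5030. One of them, Mfap5, a microfibril protein gene, had a difference of -0.28 (adjusted p = 0.059). It passed, lower in 2MT, in 4 of 17 alternatives. These were array weights (0.040), the replicate block (0.030) and the fits without saline replicate 2 (0.043) and without 2MT replicate 1 (0.033). Of 5 tested smooth muscle and pericyte markers 0 passed (0 at an unadjusted p under 0.05; sums of 1377 to 1453 and 1340 to 1507), and of 6 macrophage markers 0 passed (0 at an unadjusted p under 0.05; sums of 482.3 to 560.9 and 492 to 551.7). Of 6 endothelial markers Pecam1 fell, by 0.33 ± 0.07 (SE, adjusted p = 0.020 in limma), and 3 were at an unadjusted p under 0.05. Kdr (0.24), Emcn (0.20), Tek (0.11) and Cdh5 (0.09) had positive differences, and Tie1 had -0.02. The endothelial sums were 1256 to 1428 in saline and 1338 to 1495 in 2MT. The call of Pecam1 was lost in 6 of 17 alternatives: without saline replicate 1 (0.094) or 2 (0.086), without 2MT replicate 2 (0.092) or 3 (0.11), without the variance trend (0.089) and with every probe set on its own (0.052). The summed ranges of the fibroblast, smooth muscle, macrophage and endothelial markers overlapped between the groups, and those of the cardiomyocyte markers met at 46660. Sums of linear signal follow the markers with the highest signal, Dcn and Gsn among the fibroblast markers, and say little about the others.

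The tissue label was checked on the same markers. Of 4 atrial markers Myl7 and Sln were dim, but saline replicate 2 had more of each than the other 5 arrays, with Myl7 at 4.95 against 3.38 to 3.63, and also more Myl4, at 6.47 against 4.80 to 5.13. The fourth marker, Nppa, which the ventricle also makes, went the other way and was lowest there, at 9.91 against 10.21 to 10.59. The summed signal of the 4 markers, which mainly follows Nppa, was also lowest there, at 1093. Saline replicate 3 had more of the erythrocyte marker Alas2 (7.07 against 5.15 to 5.76). Adipocyte and neutrophil markers were all dim, as were 5 of 6 tendon and valve markers. Without saline replicate 2 or saline replicate 3 the same genes, Ccn1, Ccn2 and Thbs1, were called among the 9.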

How the data were processed

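The deposited table gives each probe set 1 number on each array. Its range (0.51 to 13.5, array medians 4.32 to 4.37) is that of log2 signal, which the deposited values were taken to be. MAS5 is named in the submitters' processing notes with no role, and how the authors normalized the arrays is not given in the sources used here. Values were used as deposited. There is no count depth, and the number of arrays, 3 per group, limits the precision.

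Gene names came from the platform's annotation: 21789 of 28944 had 1 symbol, 1621 several and 5534 none, and 21698 matched RefSeq by Entrez ID. Of several probe sets for a gene, the one with the highest mean was kept. Genes with a mean under 4.345 were left out as dim. The test was two-sided, from lmFit and eBayes (variance trend) of limma 3.58.1 under R 4.3.3, adjusted by Benjamini-Hochberg over 10547 genes. The smallest p that exact permutation of 3 against 3 arrays allows is 0.1.

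The matricellular genes and all lists were chosen with earlier results of these data known. Named by rule were the 10 genes, the list genes that passed (all where 5 or fewer did) and a fixed set (among them Yap1, Wwtr1, Tead1, Srf, Tgfb1, Tgfb2, Ankrd1, Acta2, Tnc, Spp1, Cd36 and Cd47). Also named were the 3 genes outside the 10 most correlated with each of Ccn1, Ccn2 and Thbs1. Spp1 had no probe set with 1 symbol, and 1 other gene of the fixed set is not reported here. Other names were chosen after their values were seen, as stated beside them.

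On simulated data like this comparison (10547 genes) 44% of the genes changed 1.25-fold were recovered, 78% at 1.5-fold, 98% at 2-fold and 100% at 3-fold, and 7 calls (4.19%) were false. Alternatives were no dim filter or one 1 unit higher, normalization by quantiles, by cyclic loess or by centring on medians, an offset of 16 before log2, the mean of probe sets, every probe set, no variance trend, array weights, a replicate block, and each array left out. Plots used Python 3.11.15 and matplotlib 3.10.9.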

Additional observations from a re-analysis of the deposited data

How the results depend on the processing

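Over all tested genes, 488 were called, 292 without the variance trend, and 262 to 648 with 1 array left out (298 without saline replicate 1, 276 without 2MT replicate 2 and 262 without 2MT replicate 3, and 648 without saline replicate 3). Among the 9 tested matricellular genes 3 were called in each of these fits, and 2 with the dim filter 1 unit higher, which leaves Thbs1 untested. The small differences of genes that were never called changed sign in places: with 1 array left out, Thbs3 ran from -0.13 to 0.038, Thbs4 from -0.20 to 0.012, Sparc from -0.098 to 0.087, Yap1 from -0.13 to 0.068, Tgfb2 from -0.027 to 0.073 and Acta2 from -0.10 to 0.40, and Sparc (-0.0056) and Tgfb2 (-0.0030) also turned with array weights and Cd47 (-0.0067) with the mean of its probe sets. The cause was not tested. With the replicate number as a block 586 genes were called and the same 3 matricellular genes. Deviations of same-numbered arrays correlated at 0.070, 0.040 and 0.022 for replicates 1, 2 and 3. Each 2MT array correlated best with the saline array of its own number. For 2MT replicate 2 this was narrow, at 0.0403 beside 0.0396 with saline replicate 3, which itself correlated best with 2MT replicate 2. These small correlations do not settle whether the numbers pair the samples, and the main fit used no block. With no detection calls, signal over background is unknown. Differences of Ccn3, which was dim, and of Thbs3 and Thbs4, close above the dim floor, may be understated. The same may hold for Thbs1, whose 2MT arrays lay at 4.91, 5.17 and 4.61, and so for its size beside Ccn2.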
